A study of Mus musculus with 9 samples.

Results

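The genes described here carry glucose from uptake to lactate and into the pentose phosphate pathway. They are 38 mouse genes chosen by symbol, covering glucose transporters, the enzymes of glycolysis and of both arms of the pentose phosphate pathway, regulators of the phosphofructokinase step, lactate dehydrogenase subunits and lactate transporters. All 38 were found among the 53465 genes of the count table. A symbol that stood for several genes was taken as the gene with most reads, which applied to Aldoa, Pgk1, Pgam1 and Ldha, and the genes set aside held at most 0.626% of the reads of the gene kept. The symbols Pgm1 and Pgm2 are used as in the deposited files, where Pgm1 lies on chromosome 5 and Pgm2 on chromosome 4. The GENCODE annotation of the mouse genome build GRCm38 exchanges these names.

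RNA was measured in bone marrow-derived macrophages (BMDMs) grown from male wild-type C57BL/6 mice (C57bl6/J in the study's methods) with the growth factor CSF1 at 50 ng/ml. There were 3 groups of 3 libraries. UNX macrophages were left untreated, CO-CM macrophages received medium conditioned by pulmonary artery adventitial fibroblasts of control neonatal calves, and PH-CM macrophages received medium from the fibroblasts of age-matched calves made pulmonary hypertensive by hypobaric hypoxia. The time in conditioned medium is 16 h in the growth protocol of the labels but 24 h in their treatment protocol, and the study's methods give yet another time. Each medium was a pool of several fibroblast populations, so the 3 libraries of a group repeat the culture of macrophages and do not sample separate calves, and the media are bovine while the responding cells are from the mouse. UNX cells received no conditioned medium, so products of the fibroblasts and other differences between fresh and conditioned medium cannot be told apart in the comparisons with UNX.

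Glycolysis splits a glucose molecule into pyruvate in the cytosol and yields ATP without oxygen, and lactate dehydrogenase then turns pyruvate into lactate, which leaves the cell through monocarboxylate transporters. The pentose phosphate pathway branches off at glucose 6-phosphate: its oxidative arm makes NADPH, and its non-oxidative arm makes ribose phosphate and exchanges sugars with glycolysis. In macrophages, glycolysis is known to rise with inflammatory activation and with the transcription factor HIF-1, while NADPH serves the phagocyte oxidase and the defence against oxidants. Transcript levels measured here give neither enzyme activity nor flux, and in such bulk samples fewer cells of a type and less RNA per cell cannot be told apart.

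Libraries held between 62017933 and 84314201 reads counted on genes, of which the members took between 0.954% and 1.713%. Levels are given as RPKM, the counts per exon length and per counted reads of the library that the authors deposited, divided here by the TMM composition factor of each library. RPKM values in parentheses or lists follow the replicate numbers 1, 2 and 3. Changes are log2 fold changes of the counts from edgeR's quasi-likelihood test, fitted to all 9 libraries and to the 11950 genes whose CPM exceeded 1 in 3 or more libraries, each with its standard error (SE) and its p adjusted over those genes. To be called, a gene needed a fold change of 1.2 or more (0.26 on the log2 scale) and an adjusted p no higher than 0.05. All 8 macrophage markers passed the filter on low counts, with a summed level of 11630 to 12480 CPM in UNX, 19080 to 20020 in CO-CM and 21050 to 22760 in PH-CM. Among them Lyz2 had the highest level in every library. Under CO-CM, Itgam (97.4 to 115.9 CPM in UNX, 75.6 to 99.9 in CO-CM) and Fcgr1 (93.8 to 105.4 in UNX, 78.2 to 97.2 in CO-CM) did not rise, while the other markers did. Of 8 fibroblast markers 7 passed, at a sum of 199.9 to 252.5 CPM in UNX, 273.7 to 324.5 in CO-CM and 253.8 to 338.3 in PH-CM, and the part of these markers in the results was not tested. Only 1 of 8 neutrophil markers and none of 8 lymphocyte or 6 dendritic cell markers passed.

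Members that passed the filter numbered 37 of 38. The exception was Fbp1, which encodes the gluconeogenic enzyme fructose-1,6-bisphosphatase and had 8 reads in UNX replicate 2, 2 in CO-CM replicate 2, 2 in PH-CM replicate 2 and 0 in the other libraries. The whole set did not move one way. Under PH-CM, 11 members were called higher and 7 lower than in UNX, where 31.3% of all genes tested were called higher and 31.7% lower. Under CO-CM, 8 were called higher and 10 lower than in UNX, against 28% and 28.9% of all genes. Between the media, 5 were called higher and 5 lower under PH-CM, against 12.2% and 15%. The median log2 fold change of the members was 0.03 for PH-CM against UNX, -0.26 for CO-CM against UNX and 0.12 for PH-CM against CO-CM, beside 0.01, 0.00 and -0.01 for all genes. These medians depended on single libraries. The median for PH-CM against UNX lay between -0.13 (without UNX replicate 1) and 0.16 (without PH-CM replicate 1) when 1 library was left out, was also below 0 without PH-CM replicate 2 (-0.09), and was 0.15 without UNX replicate 2 and 0.01 without PH-CM replicate 3. For CO-CM against UNX it was -0.05 without CO-CM replicate 1 and -0.06 without UNX replicate 2, and -0.28 to -0.36 without any other library. Between the media it lay between 0.06 (without CO-CM replicate 1) and 0.19 (without CO-CM replicate 2), and was 0.18 without PH-CM replicate 1. Both comparisons with UNX use the same UNX libraries. Some members share exon bases with a gene on the other strand, where the reads of both cannot be told apart, and the larger overlaps are named with the members below. Hk1, Slc2a1, Pgm2 and Tigar share such bases with Hk1os (157 bases, 399 reads), Gm12868 (105 bases, 115 reads), Itgb3bp (398 bases, 1800 reads) and Platr31 (122 bases, 9 reads), the reads of each of these 4 genes being summed over all 9 libraries.

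The replicate number shifted much of the pathway in all 3 groups. The study repeated the experiment 3 times, and deviations from the group means correlated between libraries of the same number in all 9 pairs over all genes, with r between 0.276 and 0.484. The labels do not say whether equal numbers in different groups mark the same culture repeat. The pairing was inferred from these correlations, and the libraries were treated as paired by number. When the replicate number entered the fit as a block, its F test, added after seeing the data, was past an adjusted p of 0.05 for 23 of 37 members and for 19.3% of all genes. Replicate 1 was the lowest for 21 of these members, whereas such genes were 9.52% of all genes tested. All 8 lower glycolysis genes were among the 21, as were Slc2a1, Slc2a6, Gpi1, Hk1, Hk2, Hk3, Pgm2, Pfkl, Pfkm, Pfkfb3, Pfkfb4, Ldha and Slc16a3. In that fit replicate 1 was the highest for Tigar and Pgd, although Tigar in CO-CM was highest at replicate 3 (4.38 RPKM, against 4.26 at replicate 1). The median difference of replicate 2 from replicate 1 was 0.62 on the log2 scale for lower glycolysis and 0.30 for the members, but 0.00 for all genes. None of the 4 genes of the non-oxidative pentose phosphate arm and 1 of 4 of the oxidative arm (Pgd) changed with the replicate number.

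Because the libraries were treated as paired, each comparison of a named gene is given below without and with the block wherever the block changes a call. These statements compare the edgeR fit described above with the same fit plus the block. Some other fits without the block, such as that with no filter, called more members, as given in the closing section. With the block, 12 members were called higher and 8 lower under PH-CM than in UNX (32.2% and 32.4% of all genes), 11 higher and 19 lower under CO-CM than in UNX (29.1% and 29.7%), and 14 higher and 5 lower under PH-CM than under CO-CM (14% and 16.4%). No call was lost. The median SE of the members in the comparison of PH-CM with UNX was 0.131 without the block and 0.0552 with it, and the ratio of the SEs was largest for Gpi1, at 5.23. Counted by same-numbered pairs alone, 19 members were higher and 16 lower in all 3 pairs of PH-CM with UNX, where 44.1% and 43.3% of all genes were. For CO-CM with UNX the counts were 14 and 20 (all genes 42.2% and 43.2%), and for PH-CM with CO-CM 19 and 11 (35.7% and 36.9%).

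**Figure D1:**
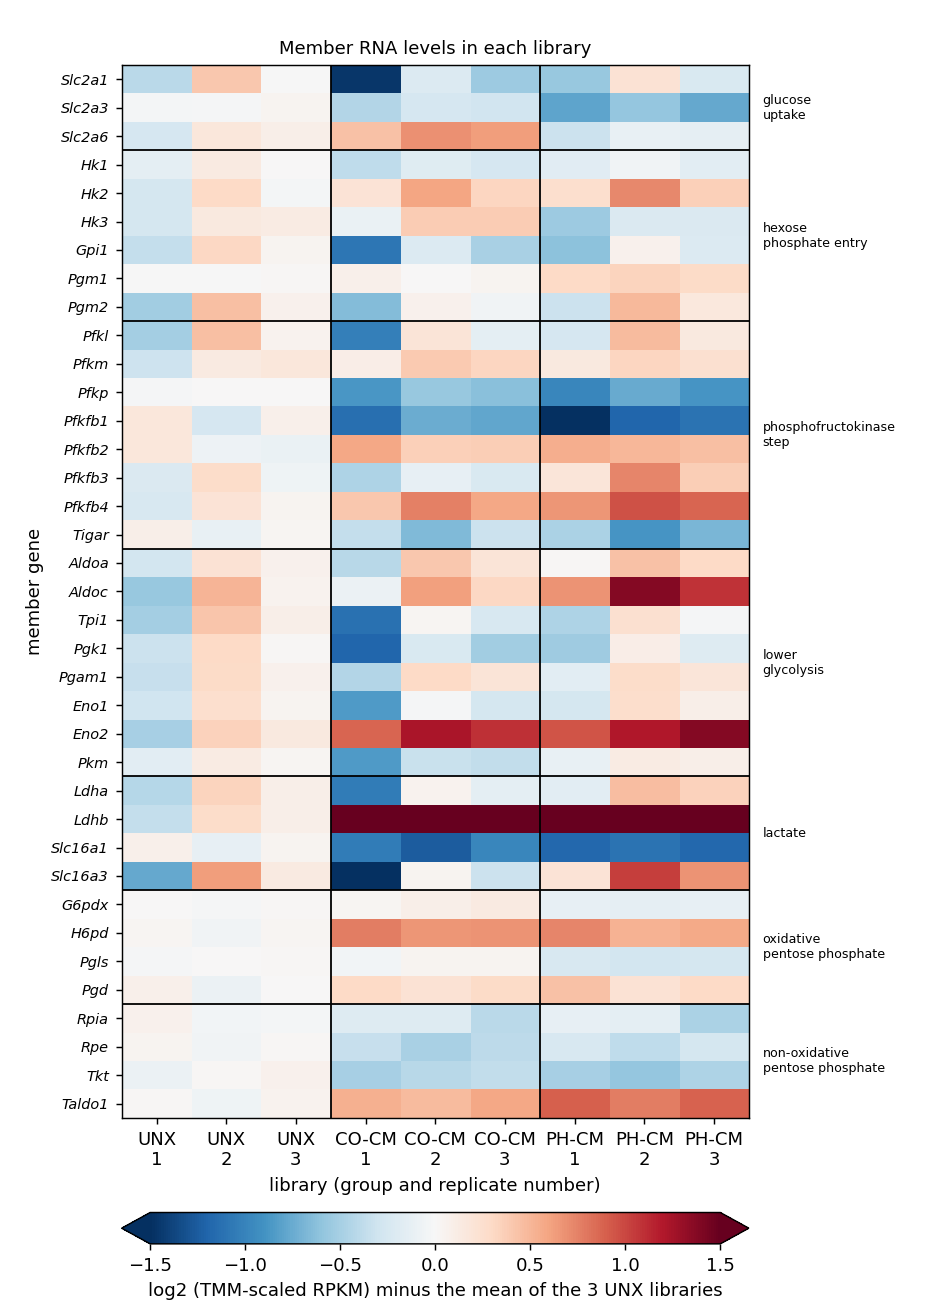
RNA level of each of the 37 members that passed the filter (rows, ordered by step of the pathway) in each of the 9 libraries (columns), as log2 of the TMM-scaled RPKM minus the mean of the 3 UNX libraries. Ldhb, Eno2 and Taldo1 stand higher and Slc16a1, Pfkp and Tkt lower in all 6 libraries with conditioned medium, while Slc2a1, Slc16a3, Ldha and most of lower glycolysis are lowest in replicate 1 of each group.

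**Figure D2:**
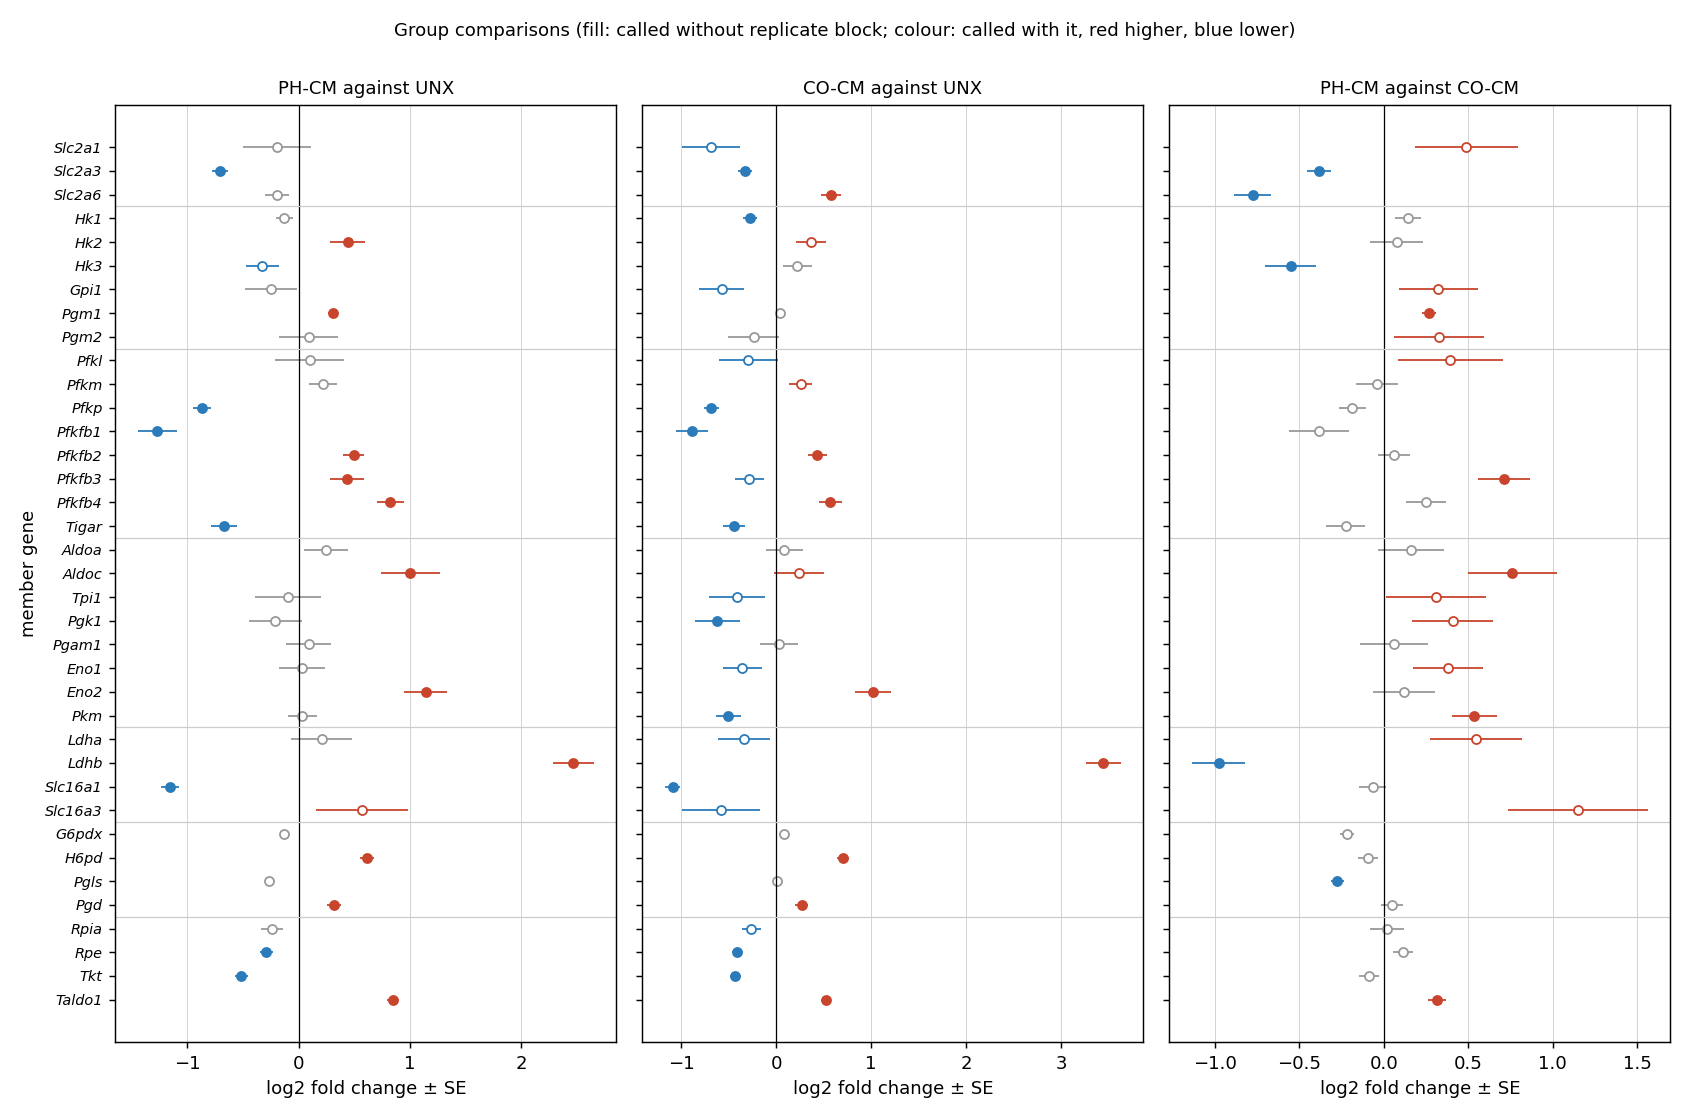
Log2 fold change with its SE (bars) of each member in the 3 comparisons, from the edgeR fit without the replicate block. Filled points were called in that fit, and colour marks calls with the block (red higher, blue lower, grey none): 9 open red points under PH-CM against CO-CM were called only with the block.

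Slc2a1, the basal glucose transporter GLUT1, had the highest level of the 3 glucose transporters among the members in every library. Its RPKM was 32.0, 55.9 and 41.8 in UNX, 15.3, 36.5 and 28.9 in CO-CM and 28.4, 48.9 and 35.9 in PH-CM. CO-CM had the lowest library of each replicate number, although the groups overlapped, and replicate 1 was the lowest of each group. Without the block no comparison of Slc2a1 was called, and CO-CM differed from UNX by log2 -0.69, SE 0.31, adjusted p 0.0679. With it, Slc2a1 was lower under CO-CM than in UNX (log2 -0.72, SE 0.0906, adjusted p 2.62e-05) and higher with PH-CM than with CO-CM (log2 0.53, SE 0.0908, adjusted p 6.31e-04, against log2 0.49, SE 0.31, adjusted p 0.239 without it), and PH-CM differed from UNX by log2 -0.19, SE 0.0896, adjusted p 0.0675, which was not called. Even without the block CO-CM was called lower than UNX once UNX replicate 1 (-0.88, adjusted p 0.0325) or CO-CM replicate 2 (-0.97, adjusted p 0.0250) was left out.

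Slc2a3, the high-affinity transporter GLUT3, fell in steps. Its RPKM was 4.22, 4.26 and 4.45 in UNX, 3.18, 3.61 and 3.53 in CO-CM and 2.48, 2.89 and 2.54 in PH-CM, and the ranges of the 3 groups did not overlap. It was lower under both media than in UNX (log2 -0.71, SE 0.0726, adjusted p 7.63e-06 under PH-CM and log2 -0.33, SE 0.0718, adjusted p 0.00217 under CO-CM) and lower under PH-CM than under CO-CM (log2 -0.38, SE 0.0728, adjusted p 0.00213). With upper-quartile factors the change under CO-CM was just below the fold threshold (-0.26, adjusted p 0.00776). Slc2a6, a lysosomal member of the transporter family, stood apart under CO-CM, with 8.66, 11.6 and 10.9 in UNX, 14.0, 16.7 and 16.0 in CO-CM and 8.28, 9.58 and 9.37 in PH-CM. All 3 CO-CM libraries lay above the 6 others. It was called higher under CO-CM than in UNX (log2 0.58, SE 0.11, adjusted p 7.08e-04) and lower under PH-CM than under CO-CM (log2 -0.78, SE 0.11, adjusted p 3.11e-04). Under PH-CM it differed from UNX by log2 -0.20, SE 0.11, adjusted p 0.121 and was called lower only without UNX replicate 1 (-0.32, adjusted p 0.00715). As a share of the summed RPKM of the 3 transporters, Slc2a1 made up 74.1% ± 3.43 in UNX, 57.0% ± 8.96 in CO-CM and 75.8% ± 3.63 in PH-CM (SD, n = 3).

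Hexokinases trap glucose as glucose 6-phosphate, and Hk3 was the most abundant of them in every library, at 74.4% ± 1.44 in UNX, 76.9% ± 2.20 in CO-CM and 68.0% ± 2.19 in PH-CM (SD, n = 3) of the summed RPKM of Hk1, Hk2 and Hk3. Its RPKM was 116, 155 and 152 in UNX, 130.2, 181 and 182 in CO-CM and 96.0, 120.3 and 121 in PH-CM. All 3 PH-CM libraries lay below the 3 CO-CM libraries, with a difference of log2 -0.55, SE 0.15, adjusted p 0.0152. This call was lost without CO-CM replicate 2 (-0.47, adjusted p 0.0563), CO-CM replicate 3 (-0.47, adjusted p 0.0612) or PH-CM replicate 1 (-0.44, adjusted p 0.0632), but was past the threshold with the block (log2 -0.54, SE 0.0375, adjusted p 8.69e-07). Against UNX, Hk3 was called lower under PH-CM with the block (log2 -0.32, SE 0.0374, adjusted p 1.23e-05) and not without it (log2 -0.33, SE 0.15, adjusted p 0.0697). Without the block it was also called lower there when UNX replicate 1 was left out (-0.46, adjusted p 0.0152), and higher under CO-CM when CO-CM replicate 1 was left out (0.37, adjusted p 0.0290).

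Hk2, the hypoxia-inducible hexokinase, moved the other way, with 15.5, 22.9 and 18.3 in UNX, 21.5, 28.2 and 23.3 in CO-CM and 22.3, 30.7 and 24.0 in PH-CM. PH-CM exceeded UNX in each same-numbered pair, by 0.52, 0.43 and 0.39 on the log2 scale. It was called higher under PH-CM (log2 0.44, SE 0.16, adjusted p 0.0258), a call lost without UNX replicate 1 (0.31, adjusted p 0.0970), UNX replicate 3 (0.41, adjusted p 0.0784) or PH-CM replicate 2 (0.30, adjusted p 0.114). With the block it was called higher under PH-CM (log2 0.45, SE 0.0381, adjusted p 9.78e-07) and under CO-CM (log2 0.37, SE 0.0381, adjusted p 5.01e-06). Without the block CO-CM against UNX was not called (log2 0.37, SE 0.16, adjusted p 0.0592), except when UNX replicate 2 (0.51, adjusted p 0.0137) or CO-CM replicate 1 (0.45, adjusted p 0.0386) was left out. The share of Hk2 in the hexokinase RNA was 9.95% ± 0.875 in UNX, 11.5% ± 1.17 in CO-CM and 15.5% ± 1.56 in PH-CM (SD, n = 3), with every PH-CM library above every UNX and CO-CM library. Hk1, the constitutive form, had 26.6, 32.4 and 29.6 in UNX, 22.6, 26.0 and 24.7 in CO-CM and 26.2, 28.3 and 26.4 in PH-CM and was called lower under CO-CM (log2 -0.27, SE 0.0760, adjusted p 0.00841). That change fell below the fold threshold without UNX replicate 2 (-0.22, adjusted p 0.0257) or CO-CM replicate 1 (-0.22, adjusted p 0.0315), and with upper-quartile factors (-0.21, adjusted p 0.0336).

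Gpi1, which turns glucose 6-phosphate into fructose 6-phosphate, had 89.1, 141 and 117 in UNX, 53.8, 98.6 and 81.2 in CO-CM and 74.5, 119 and 98.9 in PH-CM. CO-CM was lowest at each replicate number, UNX highest. In this pair of fits it was called only with the block, lower under CO-CM than in UNX (log2 -0.59, SE 0.0452, adjusted p 5.03e-07) and higher with PH-CM than with CO-CM (log2 0.34, SE 0.0451, adjusted p 1.09e-04). Without the block, PH-CM against CO-CM was at log2 0.32, SE 0.24, adjusted p 0.311 and CO-CM against UNX at log2 -0.57, SE 0.24, adjusted p 0.0504, and the latter was called without UNX replicate 1 (-0.75, adjusted p 0.0187) or CO-CM replicate 2 (-0.78, adjusted p 0.0208). Its exons share 741 bases with Gm26762 on the other strand, which had 319 reads over the 9 libraries. Pgm1 (Pgm2 in GENCODE) had nearly the same level in all UNX and CO-CM libraries (18.9 to 20.1) and was higher in every PH-CM library (23.3 to 24.0). It was called higher under PH-CM than in UNX (log2 0.31, SE 0.0408, adjusted p 5.23e-05) and than under CO-CM (log2 0.27, SE 0.0408, adjusted p 5.60e-04), the latter falling below the fold threshold without CO-CM replicate 2 (0.25, adjusted p 0.00358) or PH-CM replicate 2 (0.26, adjusted p 0.00388). With library size alone the first change fell below the fold threshold (0.25, adjusted p 6.42e-04), and the second did with DESeq2 size factors (0.26, adjusted p 6.67e-04), upper-quartile factors (0.23, adjusted p 0.00133), no filter (0.26, adjusted p 0.00163), filterByExpr (0.26, adjusted p 9.80e-04) and DESeq2's Wald test (0.26, adjusted p 8.03e-08). Pgm2 (Pgm1 in GENCODE) ranged from 13.5 to 29.6 RPKM over the libraries. In this pair of fits it was called only with the block, higher with PH-CM than with CO-CM (log2 0.32, SE 0.0522, adjusted p 4.50e-04, against log2 0.33, SE 0.27, adjusted p 0.364 without it).

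Phosphofructokinase commits sugar phosphate to glycolysis, and its subunit genes changed in different directions. Pfkp, the platelet-type subunit, was between 18.6 and 18.8 RPKM in UNX, 10.3 and 12.6 in CO-CM and 9.52 and 11.1 in PH-CM. No library with conditioned medium reached the UNX range, and it was called lower under PH-CM (log2 -0.87, SE 0.0787, adjusted p 3.04e-06) and CO-CM (log2 -0.68, SE 0.0784, adjusted p 2.36e-05). Between the media it was called lower under PH-CM only without CO-CM replicate 1 (-0.27, adjusted p 0.00765). Pfkp shares 748 exon bases with Pitrm1 on the opposite strand, and without strand their reads cannot be told apart there. Pfkl, the liver-type subunit, followed the replicate number, with 19.8, 38.8 and 29.4 in UNX, 13.9, 32.4 and 25.5 in CO-CM and 23.8, 39.1 and 31.4 in PH-CM. In this pair of fits it was called only with the block, lower under CO-CM than in UNX (log2 -0.32, SE 0.0783, adjusted p 0.00340) and higher with PH-CM than with CO-CM (log2 0.45, SE 0.0785, adjusted p 7.62e-04). Without it these were log2 -0.29, SE 0.31, adjusted p 0.417 and log2 0.39, SE 0.31, adjusted p 0.349. Pfkm, the muscle-type subunit, was lower in amount (4.58 to 7.42 RPKM) and was called higher under CO-CM with the block (log2 0.27, SE 0.0675, adjusted p 0.00422), not without it (log2 0.26, SE 0.12, adjusted p 0.0819), and without it when CO-CM replicate 1 was left out (0.34, adjusted p 0.0362). Of the summed RPKM of the 3 subunits, Pfkp made up 35.7% ± 6.95 in UNX, 28.4% ± 5.08 in CO-CM and 21.5% ± 2.37 in PH-CM (SD, n = 3), and the ranges of PH-CM and UNX did not overlap.

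The PFKFB enzymes make and remove fructose 2,6-bisphosphate, the strongest activator of phosphofructokinase, and TIGAR removes it. Pfkfb3, the form with the highest kinase activity, separated the media. Its RPKM was 6.29, 8.89 and 7.02 in UNX, 5.32, 6.70 and 6.27 in CO-CM and 8.31, 12.2 and 9.50 in PH-CM. Every PH-CM library lay above every CO-CM library (log2 0.71, SE 0.16, adjusted p 0.00483). Against UNX it was called higher under PH-CM (log2 0.43, SE 0.15, adjusted p 0.0263), but not without UNX replicate 1 (0.32, adjusted p 0.0980), UNX replicate 3 (0.38, adjusted p 0.0876) or PH-CM replicate 2 (0.27, adjusted p 0.119). With the block it was higher under PH-CM (log2 0.43, SE 0.0505, adjusted p 1.33e-05) and lower under CO-CM (log2 -0.27, SE 0.0511, adjusted p 5.97e-04) than in UNX. Without the block the latter was at log2 -0.28, SE 0.16, adjusted p 0.132 and was called when UNX replicate 1 was left out (-0.40, adjusted p 0.0481).

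Pfkfb4 rose under both media, with 5.87, 7.97 and 7.14 in UNX, 9.21, 11.7 and 10.3 in CO-CM and 11.0, 13.5 and 12.7 in PH-CM. The UNX libraries lay below all others, with a change of log2 0.82, SE 0.12, adjusted p 1.08e-04 under PH-CM and log2 0.57, SE 0.12, adjusted p 0.00159 under CO-CM. Pfkfb2 had a lower level, 1.01 to 1.62 RPKM, and was called higher under PH-CM (log2 0.49, SE 0.0960, adjusted p 8.25e-04) and CO-CM (log2 0.44, SE 0.0959, adjusted p 0.00213). Pfkfb1 was at 0.784 to 1.05 RPKM in UNX and 0.325 to 0.554 under the media, and was called lower under PH-CM (log2 -1.27, SE 0.17, adjusted p 6.75e-05) and CO-CM (log2 -0.88, SE 0.17, adjusted p 8.58e-04). Its exons share 123 bases with Apex2 on the opposite strand, and those of Pfkfb2 share 154 with Yod1. Tigar fell as well, with 5.80, 5.08 and 5.57 in UNX, 4.26, 3.46 and 4.38 in CO-CM and 3.96, 2.97 and 3.42 in PH-CM. Its UNX libraries lay above all others (log2 -0.67, SE 0.12, adjusted p 3.93e-04 under PH-CM and log2 -0.44, SE 0.12, adjusted p 0.00589 under CO-CM). Of the summed PFKFB RPKM, Pfkfb4 made up 42.5% ± 1.79 in UNX, 56.2% ± 1.06 in CO-CM and 51.1% ± 2.05 in PH-CM (SD, n = 3) and Pfkfb3 44.9% ± 2.36 in UNX, 33.0% ± 0.839 in CO-CM and 40.9% ± 2.82 in PH-CM (SD, n = 3), so that Pfkfb4 exceeded Pfkfb3 in every library with conditioned medium and in 1 of 3 UNX libraries.

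**Figure D3:**
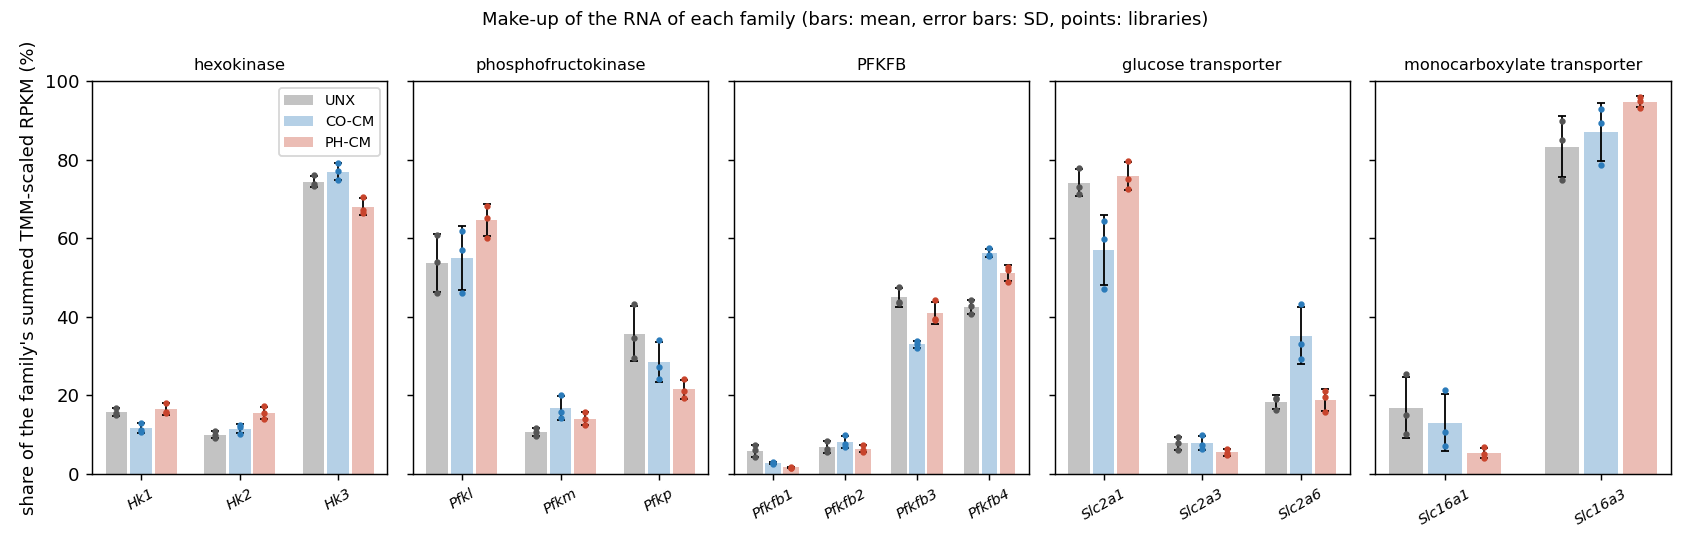
Share (%) of each gene in the summed TMM-scaled RPKM of its family in UNX, CO-CM and PH-CM libraries (bars are means, error bars SD, points the 3 libraries). The share of Slc2a1 was lower and that of Slc2a6 higher in all CO-CM libraries, Hk2 had its highest shares in PH-CM libraries, and Slc16a3 made up most of the summed RPKM of Slc16a1 and Slc16a3 in every library.

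Lower glycolysis runs from aldolase to pyruvate kinase, and among its 8 genes 2 had a called increase under PH-CM over UNX and none a decrease, beside 31.3% and 31.7% of all genes. Under CO-CM 1 was called higher and 2 lower (all genes 28% and 28.9%). With the block, 2 were higher and 4 lower under CO-CM (29.1% and 29.7%), and PH-CM was called higher than CO-CM for 5 of 8 (14%). Pkm, pyruvate kinase, was called between the media in either fit. Its RPKM was 589, 711 and 671 in UNX, 363, 521 and 505 in CO-CM and 606, 712 and 698 in PH-CM, and all CO-CM libraries lay below all others. The change was log2 -0.50, SE 0.13, adjusted p 0.00572 against UNX and log2 0.54, SE 0.13, adjusted p 0.00874 for PH-CM against CO-CM, while PH-CM and UNX differed by log2 0.03, SE 0.13, adjusted p 0.833. Pkm shares 767 exon bases with Gm49759 on the same strand, where reads cannot be assigned to either gene.

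Pgk1, phosphoglycerate kinase, had 262, 403 and 332 in UNX, 143, 279 and 228 in CO-CM and 225, 350.2 and 286 in PH-CM. At every replicate number UNX was highest and CO-CM lowest. It was called lower under CO-CM (log2 -0.62, SE 0.24, adjusted p 0.0396), a call lost without UNX replicate 2 (-0.47, adjusted p 0.129), UNX replicate 3 (-0.64, adjusted p 0.0723), CO-CM replicate 1 (-0.39, adjusted p 0.111) or CO-CM replicate 3 (-0.66, adjusted p 0.0704). With the block it was lower under CO-CM (log2 -0.65, SE 0.0635, adjusted p 3.81e-06) and higher with PH-CM than with CO-CM (log2 0.43, SE 0.0635, adjusted p 2.15e-04), the latter being log2 0.41, SE 0.24, adjusted p 0.208 without the block. The decrease under CO-CM was also not called with upper-quartile factors (-0.55, adjusted p 0.0603) or DESeq2's Wald test (-0.61, adjusted p 0.0546). Tpi1, triosephosphate isomerase, had 189, 357 and 287 in UNX, 124, 275 and 228 in CO-CM and 194, 317 and 266 in PH-CM, and Eno1, enolase 1, had 213, 312 and 271 in UNX, 146, 258 and 219 in CO-CM and 218, 313 and 279 in PH-CM. Both were lowest under CO-CM at each replicate number. In this pair of fits both were called only with the block, at log2 -0.43, SE 0.0711, adjusted p 2.08e-04 for Tpi1 and log2 -0.37, SE 0.0552, adjusted p 9.65e-05 for Eno1 under CO-CM against UNX, and at log2 0.36, SE 0.0712, adjusted p 0.00171 and log2 0.40, SE 0.0552, adjusted p 1.35e-04 for PH-CM against CO-CM. Without the block the differences from UNX were log2 -0.41, SE 0.30, adjusted p 0.240 for Tpi1 and log2 -0.35, SE 0.21, adjusted p 0.153 for Eno1, and those between the media log2 0.31, SE 0.30, adjusted p 0.445 and log2 0.38, SE 0.21, adjusted p 0.176. Aldoa, the main aldolase, ranged from 469.0 to 845.8 RPKM and Pgam1, phosphoglycerate mutase, from 141.6 to 236.9, and neither was called in any comparison in either fit.

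The minor isozymes of aldolase and enolase had a called increase under PH-CM over UNX. Aldoc, the brain-type aldolase, had 9.41, 19.9 and 14.5 in UNX, 13.1, 21.4 and 17.3 in CO-CM and 22.2, 36.1 and 29.6 in PH-CM. All PH-CM libraries lay above all others, with log2 1.00, SE 0.27, adjusted p 0.00585 against UNX and log2 0.76, SE 0.27, adjusted p 0.0445 against CO-CM. The latter call was lost when any of CO-CM replicate 1 (0.60, adjusted p 0.123), CO-CM replicate 3 (0.76, adjusted p 0.107), PH-CM replicate 2 (0.59, adjusted p 0.158) or PH-CM replicate 3 (0.76, adjusted p 0.0967) was left out, and was past the threshold with the block (log2 0.76, SE 0.0629, adjusted p 3.28e-06). It was also lost with upper-quartile factors (0.72, adjusted p 0.0540) and with DESeq2's Wald test (0.76, adjusted p 0.0571). With the block Aldoc was also higher under CO-CM than in UNX (log2 0.27, SE 0.0637, adjusted p 0.00257, against log2 0.24, SE 0.27, adjusted p 0.438 without it). Eno2, the neuron-type enolase, had 1.32, 2.36 and 2.05 in UNX, 3.39, 4.33 and 3.96 in CO-CM and 3.57, 4.27 and 4.84 in PH-CM. No UNX library reached the range of the others (log2 1.14, SE 0.19, adjusted p 2.86e-04 under PH-CM and log2 1.02, SE 0.19, adjusted p 7.14e-04 under CO-CM). These isozymes remained a small part of their families: Aldoc made up 2.22% ± 0.436 in UNX, 2.54% ± 0.170 in CO-CM and 3.73% ± 0.345 in PH-CM (SD, n = 3) of the summed RPKM of Aldoa and Aldoc and Eno2 0.706% ± 0.0797 in UNX, 1.90% ± 0.330 in CO-CM and 1.55% ± 0.185 in PH-CM (SD, n = 3) of that of Eno1 and Eno2. Eno3, not a member and outside this sum, had a mean of 2.03 RPKM in UNX, 2.94 in CO-CM and 3.01 in PH-CM. It was called higher under PH-CM (log2 0.57, SE 0.14, adjusted p 0.00367) and CO-CM (log2 0.54, SE 0.14, adjusted p 0.00561).

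At the lactate step the 4 genes moved in 4 patterns. Ldha, the subunit that favours lactate formation, had 326, 551 and 465 in UNX, 212, 452 and 396 in CO-CM and 391, 602 and 555 in PH-CM. PH-CM was highest and CO-CM lowest at each replicate number, although the groups overlapped. In this pair of fits it was called only with the block, lower under CO-CM than in UNX (log2 -0.37, SE 0.0764, adjusted p 0.00102) and higher with PH-CM than with CO-CM (log2 0.59, SE 0.0766, adjusted p 9.24e-05), and PH-CM differed from UNX by log2 0.22, SE 0.0762, adjusted p 0.0221, below the fold threshold. Without the block CO-CM against UNX was at log2 -0.34, SE 0.27, adjusted p 0.289 and PH-CM against CO-CM at log2 0.55, SE 0.27, adjusted p 0.144. Ldhb, the subunit that favours pyruvate formation, had 0.393, 0.607 and 0.533 in UNX, 4.63, 6.28 and 5.90 in CO-CM and 2.65, 2.64 and 3.25 in PH-CM. The 3 groups did not overlap, and the change was the largest of any member: log2 3.44, SE 0.18, adjusted p 9.30e-08 under CO-CM, log2 2.47, SE 0.18, adjusted p 7.24e-07 under PH-CM and log2 -0.98, SE 0.16, adjusted p 7.86e-04 between the media. Ldhb still made up only 0.115% ± 0.00518 in UNX, 1.66% ± 0.417 in CO-CM and 0.564% ± 0.119 in PH-CM (SD, n = 3) of the summed lactate dehydrogenase RPKM.

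Slc16a1, the transporter MCT1, fell under both media, with 7.42, 6.48 and 7.26 in UNX, 3.41, 2.97 and 3.57 in CO-CM and 3.12, 3.28 and 3.11 in PH-CM. No treated library reached the UNX range (log2 -1.15, SE 0.0802, adjusted p 4.12e-07 under PH-CM and log2 -1.09, SE 0.0798, adjusted p 9.02e-07 under CO-CM), and the media differed by log2 -0.07, SE 0.0809, adjusted p 0.561. Slc16a3, the hypoxia-inducible lactate exporter MCT4, had 21.9, 57.9 and 41.1 in UNX, 12.6, 38.5 and 29.9 in CO-CM and 43.0, 77.0 and 59.6 in PH-CM. It stood highest under PH-CM and lowest under CO-CM at each number, and the PH-CM libraries lay above all CO-CM libraries. The difference between the media was log2 1.15, SE 0.41, adjusted p 0.0505 without the block, just outside the threshold, and was called without CO-CM replicate 2 (1.49, adjusted p 0.0334) or PH-CM replicate 1 (1.35, adjusted p 0.0460). With the block it was log2 1.25, SE 0.12, adjusted p 1.08e-05, with PH-CM above UNX (log2 0.65, SE 0.12, adjusted p 4.38e-04) and CO-CM below it (log2 -0.60, SE 0.12, adjusted p 8.40e-04). Without it these differences from UNX were log2 0.57, SE 0.41, adjusted p 0.229 and log2 -0.58, SE 0.41, adjusted p 0.230. By replicate number, the log2 ratio of PH-CM to CO-CM was 1.77, 1.00 and 1.00. The ratio was largest at replicate 1. Of the summed RPKM of both transporters, Slc16a3 made up 83.2% ± 7.77 in UNX, 87.0% ± 7.35 in CO-CM and 94.7% ± 1.37 in PH-CM (SD, n = 3), at least 93.2% in every PH-CM library.

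**Figure D4:**
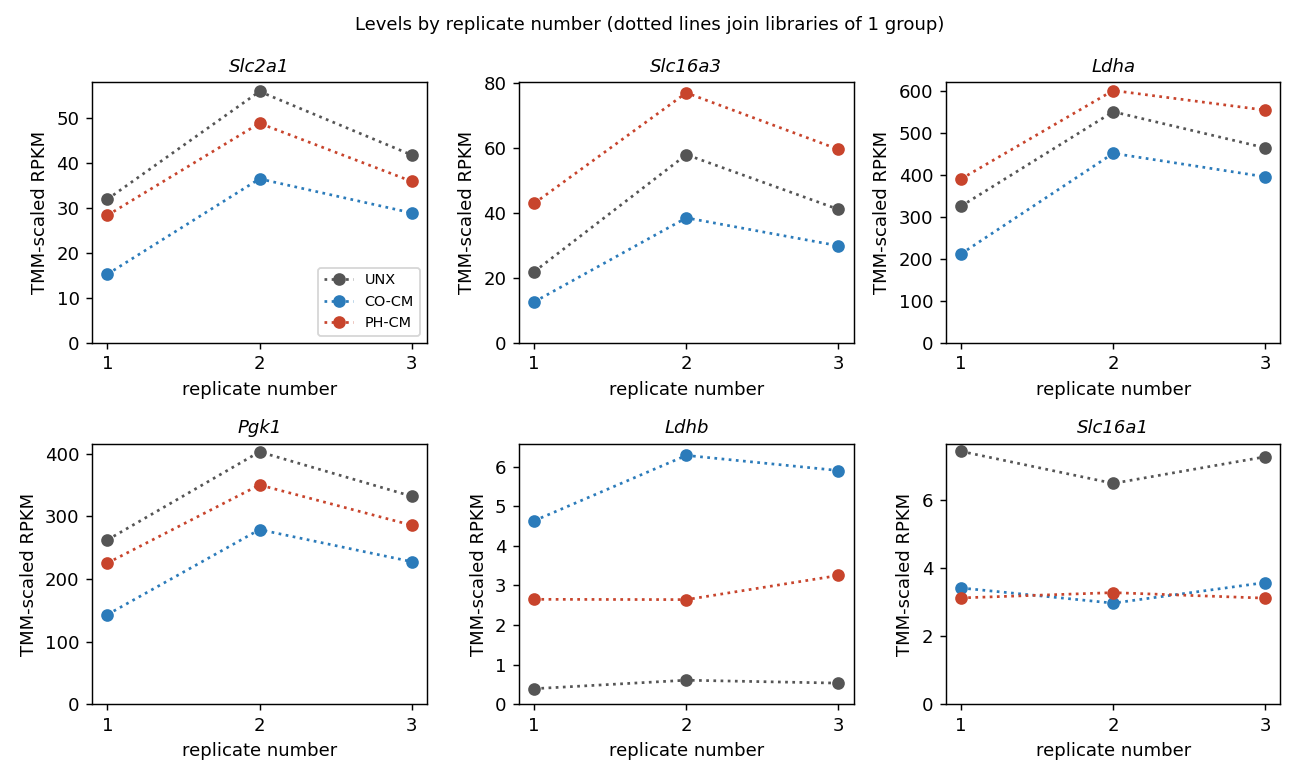
TMM-scaled RPKM of Slc2a1, Slc16a3, Ldha, Pgk1, Ldhb and Slc16a1 by replicate number, with 1 line for each group. The first 4 genes are lowest at replicate 1 and highest at replicate 2 in each group while the order of the groups is the same at every number, whereas the lines of Ldhb and of UNX Slc16a1 lie far from those of the other groups.

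The sequences before the starts of the lactate genes and of Pgk1 are shown because these genes moved in different ways and several are textbook targets of HIF-1. Each is the run of 250 bases before a transcript start in RefSeq (build GRCm38.p6), read 5′ to 3′ on the strand of the gene, and capitals mark matches to the core letters of the HIF response element, ACGTG or GCGTG on either strand. The letters CACGTG, the E-box, match on both strands and count as 1 place. In the GENCODE annotation 14 bases at the edge of the Slc16a3 sequence are exonic, and no base of the others is. Ldha has sequences for different starts, at chr7:46845554-46845803 and chr7:46846832-46847081 on the plus strand. Ldhb lies at chr6:142507958-142508207 on the minus strand, Slc16a1 at chr3:104638414-104638663 on the plus strand, Slc16a3 at chr11:120948817-120949066 on the plus strand and Pgk1 at chrX:106186850-106187099 on the plus strand.
Ldha, first start: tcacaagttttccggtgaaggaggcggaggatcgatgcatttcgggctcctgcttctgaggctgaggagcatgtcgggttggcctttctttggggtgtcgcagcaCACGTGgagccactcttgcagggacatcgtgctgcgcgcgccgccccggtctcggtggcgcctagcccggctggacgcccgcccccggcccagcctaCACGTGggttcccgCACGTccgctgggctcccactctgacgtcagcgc
Ldha, second start: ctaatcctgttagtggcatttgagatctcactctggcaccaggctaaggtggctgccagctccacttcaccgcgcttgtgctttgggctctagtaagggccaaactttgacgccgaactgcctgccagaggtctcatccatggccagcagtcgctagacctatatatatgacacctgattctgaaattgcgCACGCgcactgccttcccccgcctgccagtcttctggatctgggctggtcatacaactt
Ldhb: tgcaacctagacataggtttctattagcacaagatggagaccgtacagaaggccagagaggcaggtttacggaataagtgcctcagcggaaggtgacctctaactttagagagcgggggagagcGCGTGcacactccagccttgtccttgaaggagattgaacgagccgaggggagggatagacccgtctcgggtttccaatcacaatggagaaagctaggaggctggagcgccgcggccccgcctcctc
Slc16a1: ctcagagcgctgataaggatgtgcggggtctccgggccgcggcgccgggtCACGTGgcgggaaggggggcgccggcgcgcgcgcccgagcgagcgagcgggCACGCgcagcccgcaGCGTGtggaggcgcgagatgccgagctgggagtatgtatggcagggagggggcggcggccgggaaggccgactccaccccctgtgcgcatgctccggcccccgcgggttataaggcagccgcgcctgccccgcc
Slc16a3: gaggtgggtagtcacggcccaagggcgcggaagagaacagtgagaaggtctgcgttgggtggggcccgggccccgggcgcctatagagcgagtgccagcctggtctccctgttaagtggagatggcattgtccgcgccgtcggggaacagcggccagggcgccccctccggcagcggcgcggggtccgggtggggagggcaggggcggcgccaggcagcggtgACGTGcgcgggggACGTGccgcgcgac
Pgk1: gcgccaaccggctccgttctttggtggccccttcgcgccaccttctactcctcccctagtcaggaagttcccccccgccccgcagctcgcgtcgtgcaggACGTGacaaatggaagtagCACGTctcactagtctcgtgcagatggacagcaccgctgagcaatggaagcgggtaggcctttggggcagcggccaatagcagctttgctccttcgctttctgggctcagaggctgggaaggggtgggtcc

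Ldha held 3 matches before its first start, beginning 145, 48 and 34 bases ahead of it, and 1 match 59 bases before the second. Ldhb held 1, Slc16a1 3, Slc16a3 2 (27 and 14 bases before the start) and Pgk1 2. Matches thus stood before genes that rose, before Slc16a1, which fell, and before genes that followed the replicate number. Promoter sequences were found for 37 members, in 55 windows, and 72.7% of the windows held a match. Among the 11524 windows of genes tested here it was 56.1% and in the whole table of 32851 windows 38.6%. The letters are short, and a match describes the sequence and not a bound factor.

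In the oxidative arm of the pentose phosphate pathway each medium had a called increase over UNX for 2 of 4 genes and a decrease for none, where PH-CM had 31.3% of all genes called up and 31.7% called down and CO-CM had 28% and 28.9%. G6pdx, the X-linked glucose-6-phosphate dehydrogenase at the entry of the arm, had 69.0, 67.7 and 69.3 in UNX, 70.0, 73.2 and 75.4 in CO-CM and 62.9, 62.4 and 62.9 in PH-CM. PH-CM lay below UNX and CO-CM in every library, but the changes (log2 -0.13, SE 0.0409, adjusted p 0.0146 against UNX and log2 -0.22, SE 0.0409, adjusted p 0.00215 against CO-CM) were below the fold threshold. G6pdx shares 418 exon bases with Ikbkg on the opposite strand. Pgls, the lactonase, shares 776 exon bases with Fam129c on the same strand, which had 921 reads over the 9 libraries. Pgls had 25.5, 25.9 and 26.1 in UNX, 25.1, 26.6 and 26.5 in CO-CM and 21.8, 21.3 and 21.5 in PH-CM. It was lower in all PH-CM libraries, at log2 -0.28, SE 0.0398, adjusted p 3.91e-04 against CO-CM, called, and at log2 -0.26, SE 0.0398, adjusted p 1.43e-04 against UNX, which was below the fold threshold and past it without UNX replicate 1 (-0.28, adjusted p 3.04e-04), UNX replicate 2 (-0.27, adjusted p 6.25e-04), UNX replicate 3 (-0.27, adjusted p 8.78e-04) or PH-CM replicate 1 (-0.27, adjusted p 6.91e-04). Against CO-CM the call was lost without CO-CM replicate 2 (-0.26, adjusted p 0.00248) and with library size alone (-0.26, adjusted p 5.52e-04).

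Pgd, the second NADPH-forming enzyme of the arm, had 92.3, 82.4 and 87.3 in UNX, 107, 102 and 107 in CO-CM and 118, 101 and 107 in PH-CM. All treated libraries lay above UNX, at log2 0.32, SE 0.0654, adjusted p 0.00120 under PH-CM and log2 0.27, SE 0.0654, adjusted p 0.00400 under CO-CM. Both were near the fold threshold. The first call was lost without PH-CM replicate 1 (0.26, adjusted p 0.00502) and the second without UNX replicate 2 (0.21, adjusted p 0.0254), UNX replicate 3 (0.25, adjusted p 0.0203), CO-CM replicate 1 (0.26, adjusted p 0.0116) or CO-CM replicate 3 (0.26, adjusted p 0.0139). With library size alone both were lost (0.26, adjusted p 0.00850 under PH-CM and 0.20, adjusted p 0.0348 under CO-CM), as was the second with no filter (0.23, adjusted p 0.00179) or filterByExpr (0.24, adjusted p 0.00929). H6pd, which runs the first steps of the pathway inside the endoplasmic reticulum, had 14.5, 13.7 and 14.5 in UNX, 24.3, 22.5 and 22.7 in CO-CM and 23.7, 20.5 and 21.1 in PH-CM. It was higher in every treated library, at log2 0.61, SE 0.0598, adjusted p 5.32e-06 under PH-CM and log2 0.70, SE 0.0598, adjusted p 2.60e-06 under CO-CM, and the media differed by log2 -0.09, SE 0.0594, adjusted p 0.255.

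The non-oxidative arm split between its transfer enzymes. Taldo1, transaldolase, had 142, 134 and 145 in UNX, 203, 196 and 209 in CO-CM and 260.4, 239 and 259 in PH-CM. The 3 groups did not overlap, and Taldo1 was called higher under PH-CM than in UNX (log2 0.85, SE 0.0536, adjusted p 2.06e-07), under CO-CM than in UNX (log2 0.53, SE 0.0533, adjusted p 9.07e-06) and under PH-CM than under CO-CM (log2 0.32, SE 0.0532, adjusted p 0.00101). Tkt, transketolase, went down, with 79.9, 86.3 and 89.0 in UNX, 60.1, 63.6 and 66.0 in CO-CM and 60.0, 56.9 and 61.5 in PH-CM. It was called lower under PH-CM (log2 -0.52, SE 0.0576, adjusted p 1.46e-05) and CO-CM (log2 -0.43, SE 0.0575, adjusted p 7.34e-05). Rpe, the ribulose phosphate epimerase, had 12.5 to 13.3 RPKM in UNX, 9.24 to 10.2 in CO-CM and 9.97 to 10.99 in PH-CM and was called lower under both media (log2 -0.29, SE 0.0579, adjusted p 9.29e-04 under PH-CM and log2 -0.41, SE 0.0580, adjusted p 1.09e-04 under CO-CM). The call under PH-CM was lost without PH-CM replicate 2 (-0.25, adjusted p 0.00524). Rpe shares 558 exon bases with Kansl1l on the opposite strand. Rpia, the ribose phosphate isomerase, was between 2.06 and 3.005 RPKM and was called lower under CO-CM with the block (log2 -0.27, SE 0.0706, adjusted p 0.00538). Without the block it was at log2 -0.26, SE 0.10, adjusted p 0.0388, just under the fold threshold, and was called when UNX replicate 2 (-0.30, adjusted p 0.0430) or CO-CM replicate 1 (-0.30, adjusted p 0.0423) was left out, as was the decrease under PH-CM without PH-CM replicate 1 (-0.30, adjusted p 0.0306).

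A list of 70 further genes of these pathways was set beside the members, of which 50 passed the filter. They hold other glycolytic and hexose enzymes, transporters and their chaperones, pyruvate entry, ribose phosphate synthesis and glycogen. Under PH-CM 17 were called higher and 14 lower than in UNX, beside 31.3% and 31.7% of all genes tested. Under CO-CM the counts were 14 and 17 (all genes 28% and 28.9%), and between the media 8 and 7 (12.2% and 15%). The median log2 fold changes of these further genes were -0.09, 0.04 and 0.07. Gapdh, the glyceraldehyde phosphate dehydrogenase of lower glycolysis, was at 608 ± 78.8 in UNX, 458 ± 103 in CO-CM and 550.4 ± 78.3 in PH-CM (SD, n = 3) RPKM and was called lower under CO-CM (log2 -0.41, SE 0.17, adjusted p 0.0477), with log2 -0.14, SE 0.17, adjusted p 0.447 under PH-CM. It was called higher with PH-CM than with CO-CM only with the block (log2 0.28, SE 0.0569, adjusted p 0.00198, against log2 0.26, SE 0.17, adjusted p 0.239 without it). Bsg, the chaperone that brings MCT1 and MCT4 to the cell surface, was called higher under PH-CM (log2 0.32, SE 0.0930, adjusted p 0.00891). Under CO-CM its change was below the fold threshold (log2 0.25, SE 0.0930, adjusted p 0.0323). Emb, listed with the chaperones of monocarboxylate transporters, was at 15.4 ± 1.23 in UNX, 23.2 ± 2.57 in CO-CM and 63.0 ± 7.09 in PH-CM (SD, n = 3) RPKM and was called higher (log2 2.03, SE 0.10, adjusted p 4.19e-08 under PH-CM and log2 1.44, SE 0.10, adjusted p 3.21e-06 between the media).

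Other called genes with a fold change of at least 2 included the following. Arrdc4, an arrestin-related protein known to respond to glucose, was at 2.60 ± 0.107 in UNX, 6.71 ± 0.697 in CO-CM and 12.0 ± 0.220 in PH-CM (SD, n = 3) RPKM (log2 2.21, SE 0.0757, adjusted p 2.84e-09 under PH-CM and log2 1.37, SE 0.0748, adjusted p 1.11e-07 under CO-CM). Prps1 and Prps2, which make phosphoribosyl pyrophosphate from ribose phosphate, were called lower under PH-CM (log2 -2.12, SE 0.13, adjusted p 1.69e-07 for Prps1 and log2 -1.24, SE 0.0594, adjusted p 2.64e-08 for Prps2). Both were also called lower under CO-CM (log2 -1.47, SE 0.13, adjusted p 2.72e-06 for Prps1 and log2 -0.46, SE 0.0580, adjusted p 4.83e-05 for Prps2). Pygl, the liver-type glycogen phosphorylase, was at 9.55 ± 2.74 in UNX, 20.7 ± 3.43 in CO-CM and 33.5 ± 3.42 in PH-CM (SD, n = 3) RPKM and was called higher under PH-CM (log2 1.81, SE 0.19, adjusted p 9.85e-06), as was Pgam2, the muscle-type phosphoglycerate mutase (log2 1.80, SE 0.20, adjusted p 1.20e-05). Both were also called higher under CO-CM (log2 1.11, SE 0.19, adjusted p 3.78e-04 for Pygl and log2 1.16, SE 0.20, adjusted p 3.82e-04 for Pgam2). Around the mitochondrial entry of pyruvate, Pdk2, a kinase that inhibits pyruvate dehydrogenase, was called higher under PH-CM (log2 1.72, SE 0.0721, adjusted p 1.09e-08) and CO-CM (log2 1.59, SE 0.0720, adjusted p 3.38e-08), and Pdp1, a phosphatase that activates it, was called higher under PH-CM (log2 1.01, SE 0.0946, adjusted p 4.01e-06) and CO-CM (log2 0.57, SE 0.0942, adjusted p 3.02e-04). Pcx, pyruvate carboxylase, was called lower under PH-CM (log2 -1.48, SE 0.13, adjusted p 2.43e-06) and CO-CM (log2 -0.89, SE 0.13, adjusted p 1.08e-04). Pgp, the phosphoglycolate phosphatase, was called lower under CO-CM (log2 -1.08, SE 0.0911, adjusted p 2.45e-06) and under PH-CM (log2 -0.84, SE 0.0906, adjusted p 1.17e-05).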

How the data were processed

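Of the deposited tables, raw counts and RPKM were used. Per the labels and the study's methods, the authors aligned paired reads to GRCm38 with STAR and counted reads on exons with featureCounts 1.6.2, and the deposited counts are whole numbers without normalization. The deposited RPKM are these counts scaled to exon length and library reads, computed by the authors without a composition factor, so they were divided by the TMM factor here. Tables of the authors' own comparisons, which hold fold changes, p-values and FDR, were not used. The options the methods list for the counting include none for strand or pairs, and without them the program ignores strand and counts each mate alone. Between 81.4% and 83.8% of counts under 20 were even. Such counting makes counting error larger than the reads imply, and genes overlapping on opposite strands cannot be told apart.

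Differences were tested on the counts by edgeR 4.0.16 under R 4.3.3 (TMM, quasi-likelihood test, Benjamini-Hochberg over 11950 genes), with DESeq2 1.42.0 and limma 3.58.1 as alternatives. Groups and replicate numbers came from the sample titles. The block was the replicate number. Alternatives covered scaling, filters, tests, pseudocounts of 1 and 0.1 on the deposited RPKM, a fold threshold of 2 and each library left out. Blocked fits with other scalings or without 1 replicate number, and the F test of the number, were chosen after seeing the data. On simulated counts for PH-CM against UNX, 76.3% of genes changed by 1.5-fold and 95.9% of those changed by 2-fold were recovered among 11781 tested, with 14 false calls. Unlike these data, the simulation held few changed genes and no shift by replicate number. Its rates may not hold for members that shifted with the number. No libraries of 1 group agreed within sampling noise (chi-square per gene at least 10.6). With 3 libraries a group, p-values without the block measure the spread between the libraries of a group. Those with the block measure the spread left once the replicate number is taken out. All members are accounted for, and of the 50 further genes those called with a fold change of at least 2, plus Gapdh, Bsg and Eno3, are named. Members and lists were chosen with earlier results of these data known.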

Additional observations from a re-analysis of the deposited data

How the results depend on the processing

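Counts of calls moved by more than 1.5 times with a fold threshold of 2 and with the replicate block, alone or combined with another choice. With the number as a block, 30 members rather than 18 were called under CO-CM against UNX and 19 rather than 10 under PH-CM against CO-CM, while PH-CM against UNX gave 20 rather than 18. The block moved no count of calls over all genes or over the further pathway genes by more than 1.5 times. Without the block, the fit with no filter also called more members, by less than 1.5 times. It called 12 higher and 10 lower under PH-CM against UNX, where 8858 of all genes were called. Under CO-CM against UNX it called 8 higher and 18 lower (7756 of all genes), and between the media 9 higher and 5 lower (3718). Combined with the block, DESeq2 size factors gave 29 members under CO-CM against UNX and 18 between the media, library size alone 28 and 19, and upper-quartile factors 26 and 19. With a pair number left out as well, the blocked fits gave 27 to 29 members under CO-CM and 18 to 19 between the media. These combinations were chosen after seeing the data. With a fold threshold of 2, applied only without the block, members called fell to 5 under PH-CM, 3 under CO-CM and 0 between the media. At that threshold the further pathway genes numbered 9, 6 and 1, and all genes 2153, 1655 and 612. The lower counts follow from the stricter threshold. Between the media Slc16a3 passed that fold (log2 1.15) but had an adjusted p of 0.0505 in edgeR's quasi-likelihood test, so it was called at neither threshold without the block. The 0 between the media stands beside 13 members with an unadjusted p under 0.05 in edgeR's quasi-likelihood test, and under DESeq2's Wald test at a fold of 1.2, 9 were called.

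Scaling moved the balance of directions under CO-CM against UNX from 8 higher and 10 lower to 10 and 7 with upper-quartile factors and 7 and 13 with library size alone, and under PH-CM to 9 and 10 with library size alone. The limma tests used log2 of the deposited RPKM without the TMM factor. They ended the calls of Pgm1 under PH-CM, Pgd under both media and Pgls between the media, which library size alone also ended. The limma tests with a pseudocount of 1 also ended the calls of Pfkfb2 under both media, and without a filter those of Hk2 and Pfkfb3 under PH-CM, Pgk1 under CO-CM and Hk3 and Aldoc between the media. No scaling moved the median of all genes by more than 0.07. The median of the members under PH-CM against UNX was below 0, between -0.025 and -0.0058, with library size alone, either other filter or limma. Leaving out 1 library gave 15 to 19 members called under PH-CM against UNX, 16 to 21 under CO-CM and 8 to 10 between the media. Over 30 alternatives and 111 member comparisons, 2553 of 2997 values kept their direction and their side of the threshold, 118 lost the call, 250 gained one, and no called value changed sign. The other 76 changed sign without being called either way, at a log2 fold change of at most 0.24 in size.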
